A study of Homo sapiens with 9 samples.

Results

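The 32 genes described here are known to be induced by androgen in prostate cells and lie outside the kallikrein family. They were taken by name from a list chosen with earlier results of these data known. Each matched 1 of the 60880 gene rows of the count tables. All 32 passed the filter on low counts, some only through the groups where they were high. RNA sequencing was done on LNCaP, an established human prostate cancer cell line that responds to androgen, in 3 groups of 3 libraries labelled with a time of 24 h. The groups were control (NT), UGT2B28 knockdown (KD4), and rescue (KD4OE), which carries the knockdown and overexpresses UGT2B28. Cells of every group grew in RPMI medium with fetal bovine serum. Puromycin is named as the selection antibiotic for knockdown and G418 as that for rescue, with none named for control, so construct and antibiotic cannot be told apart. Only 1 knockdown line was sequenced. Nothing in the labels says that replicates were separate cultures, so p-values measure the spread among these libraries and that spread may be technical.

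Androgens are steroid hormones that change transcription through DNA sequences called androgen response elements, many of them in enhancers far from gene starts. Genes switched on in this way serve the secretory work of the prostate epithelium, among them genes of lipid and sugar metabolism, membrane traffic and secreted proteins. UGT2B enzymes attach glucuronic acid to steroids, which makes them soluble and inactive.

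Gene counts summed to 20300744 to 26459528 per library. Levels are given as CPM, the counts of a gene scaled to a fixed library total after TMM correction. UGT2B28, the targeted gene, gave 0.936, 0.186 and 0.454 CPM in the control libraries, 0.648, 0.337 and 0.0460 in the knockdown libraries and 55.1, 62.3 and 69.6 in the rescue libraries. The control and knockdown libraries overlapped, at 39 and 26 counts per group, and a lower level in knockdown could not be detected (log2 fold change −0.60, SE 0.62, adjusted p = 0.52). Without control replicate 1 that value was 0.16. The group is therefore named by its label, and the close sequence similarity of UGT2B genes makes such low counts uncertain. The rescue libraries lay above both other groups. All 7 luminal epithelial markers examined were above 1 CPM in every group, with sums of 3650.4 to 3922 CPM in control, 6471 to 6880.4 under knockdown and 6812 to 7555 under rescue. KLK3, also one of the androgen reporters counted at the end, went from 1428 to 3750.1 CPM between control and knockdown and made up most of the rise in the sum. Of the 7, 6 were called higher in knockdown than in control, where 16.5% of all tested genes were. In rescue against control 5 were higher and 1 lower, where 19.0% and 18.8% of all tested genes were called. KRT8, the one not called in knockdown, stood at 1012 CPM in control and 1063 in knockdown (adjusted p = 0.52). It was also the one called lower in rescue than in control (−0.21, adjusted p = 0.026). Sums over 3 basal markers were 1.53 to 2.78 CPM in control, 3.37 to 5.48 under knockdown and 2.94 to 4.72 under rescue, with TP63 at or near 0 and KRT14 called higher in knockdown. Sums over 3 neuroendocrine markers were 0.418 to 1.04 CPM in control, 0.877 to 1.20 under knockdown and 1.35 to 1.76 under rescue, with CHGA and INSM1 at or near 0. Of 4 non-epithelial markers listed, PECAM1 matched no single gene row. Among the other 3, PTPRC was at 0 and DCN at or near 0, and COL1A1 was at 68.2, 48.4 and 63.2 CPM. COL1A1 was called lower in knockdown than in control (−0.50, adjusted p = 0.00018) and higher in rescue than in knockdown (0.39, adjusted p = 0.0081). The part of these marker levels in the results was not tested.

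Most of the androgen-induced genes were higher in knockdown than in control. Of the 32, 20 rose, 1 fell and 11 were not called at an adjusted p under 0.05 in edgeR's quasi-likelihood test. That is 62.5% higher and 3.12% lower, where 16.5% and 15.6% of all 18389 tested genes were called. The list was chosen with earlier results known, so this excess over background is a description and not an unbiased comparison. The median log2 fold change of the 32 was 0.62, beside 0.01 for all tested genes. Differences of at least 2-fold were called upward for 8 of the 32 (background 3.98%) and downward for 1 (background 3.88%). The libraries of the 2 groups did not overlap for 24 of the 32, or 75.0%, against 42.5% of all genes. The 20, the 8 and the 24 include MAF, HPGD and PTGER4, which passed the filter only through knockdown and rescue libraries. Genes so low in control could pass it only by being higher elsewhere, so their calls are no support for a rise. In bulk RNA a change in the share of cells and a change in RNA per cell cannot be told apart.

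All 20 genes raised in knockdown were also called higher in rescue than in control. Both comparisons use the same control libraries, and rescue carries the knockdown. The like share over all tested genes was not counted, so nothing particular to the 32 can be read from this. In rescue against knockdown 9 of the 32 were higher and 2 lower, where 5.20% and 4.88% of all genes were called. A 2-fold difference was called upward for 1 and downward for 1 (background 1.00% and 0.544%), and 19 of the 32 had no overlap between the 2 groups (background 27.5%). In rescue against control 24 were higher and 3 lower, where 19.0% and 18.8% of all genes were called. There 14 were at least 2-fold higher and 1 at least 2-fold lower (background 4.99% and 4.38%), 28 had no overlap (background 48.1%), and the median log2 fold change was 0.71, beside −0.0025 for all tested genes. MAF, HPGD and PTGER4 are again among the 24, the 14 and the 28. The 3 comparisons share libraries, so none is independent support for another.

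**Figure D1:**
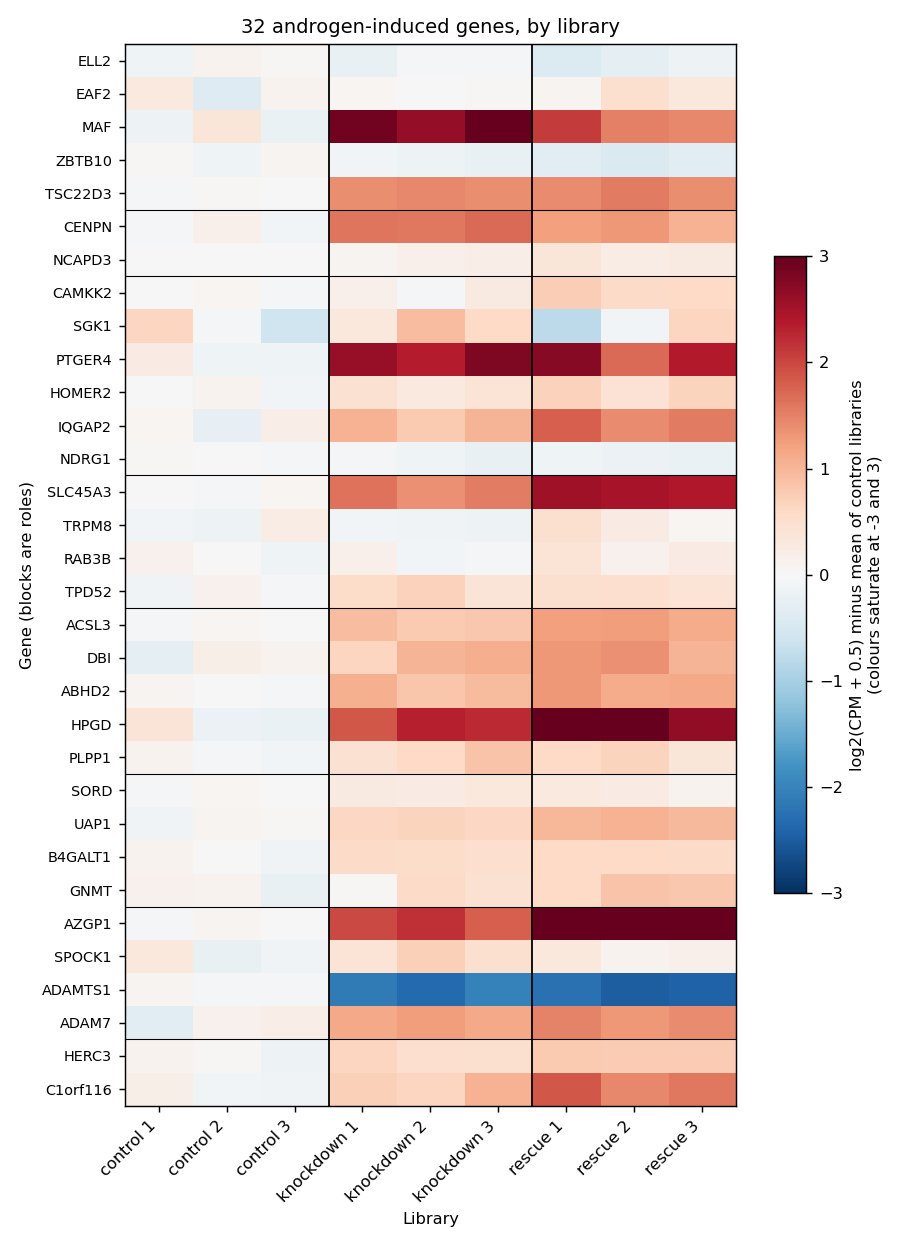
Each row is one of the 32 genes, in blocks by role, and each column one library; colour gives log2(CPM + 0.5) minus the mean of the 3 control libraries. MAF, PTGER4, HPGD, AZGP1 and SLC45A3 are above control in all 6 knockdown and rescue libraries, and ADAMTS1 is below it in all 6. MAF, PTGER4 and HPGD passed the filter only through those libraries, so their place above control is no support for a rise. Of all tested genes, 42.5% had no overlap between knockdown and control, and 48.1% had none between rescue and control.

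**Figure D2:**
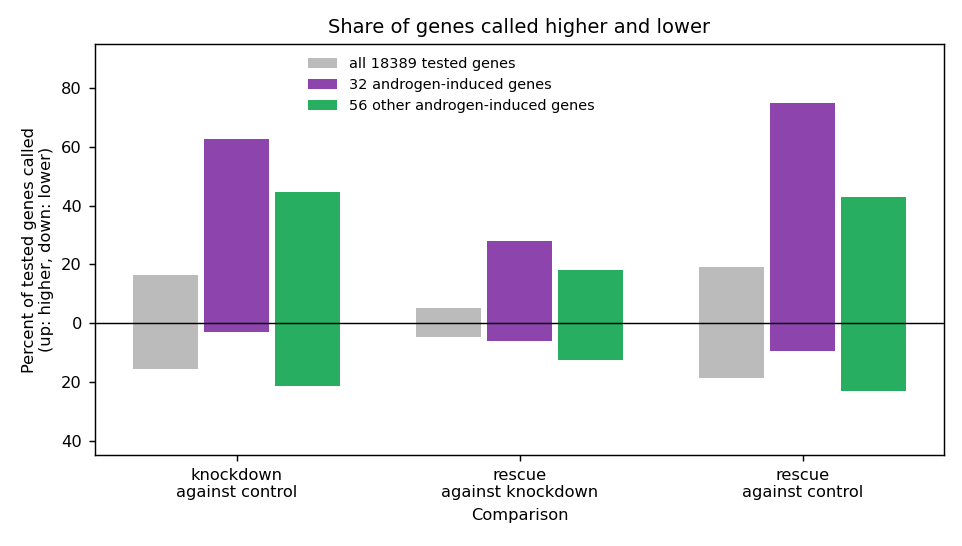
Bars give the percent of tested genes called higher (upward) or lower (downward) in each comparison, for all tested genes, the 32 genes and 56 other androgen-induced genes. In knockdown against control the upward bars stand at 16.5%, 62.5% and 44.6%.

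A run of 7 genes was called higher in knockdown than in control and again higher in rescue: SLC45A3, AZGP1, HPGD, IQGAP2, C1orf116, ACSL3 and UAP1. For each of them the libraries of all 3 groups were separate, as they were for ABHD2, HERC3, ADAM7, NCAPD3, MAF and CENPN. The share of all tested genes with both calls was not counted, so the run is a description. HPGD is in it although its call over control is no support for a rise. The stretches printed below lie before the starts of 4 of the 7, and of MAF, which fell from knockdown to rescue. They are RefSeq windows on GRCh38.p14, from a table that matched 23 of the 32 genes with 45 starts. ADAM7, ADAMTS1, ELL2, NDRG1, PLPP1, SORD, SPOCK1, TPD52 and ZBTB10 had no entry. The 250 bases before the start are printed 5′ to 3′ on the gene's strand, and for AZGP1 the 124 of them farthest from it. Capitals mark the androgen response half-site AGAACA or its reverse complement TGTTCT. The windows are chr1:205680510-205680759 (minus strand) for SLC45A3, chr7:99976158-99976281 (minus) for AZGP1, chr1:207032757-207033006 (minus) for C1orf116, chr5:76547159-76547408 (plus, 1 of its 3 starts) for IQGAP2 and chr16:79600738-79600987 (minus) for MAF.
SLC45A3: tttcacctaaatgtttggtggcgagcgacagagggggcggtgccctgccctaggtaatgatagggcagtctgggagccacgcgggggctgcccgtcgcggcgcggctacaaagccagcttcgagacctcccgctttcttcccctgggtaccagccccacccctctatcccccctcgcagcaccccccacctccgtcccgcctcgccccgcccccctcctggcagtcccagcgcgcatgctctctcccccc
AZGP1: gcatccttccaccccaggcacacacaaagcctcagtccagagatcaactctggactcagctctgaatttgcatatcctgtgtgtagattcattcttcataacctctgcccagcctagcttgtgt
C1orf116: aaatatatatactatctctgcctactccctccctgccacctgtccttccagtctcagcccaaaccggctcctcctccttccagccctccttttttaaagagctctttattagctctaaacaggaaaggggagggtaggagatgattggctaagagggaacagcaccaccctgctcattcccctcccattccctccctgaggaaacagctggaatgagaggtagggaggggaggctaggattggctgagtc
IQGAP2: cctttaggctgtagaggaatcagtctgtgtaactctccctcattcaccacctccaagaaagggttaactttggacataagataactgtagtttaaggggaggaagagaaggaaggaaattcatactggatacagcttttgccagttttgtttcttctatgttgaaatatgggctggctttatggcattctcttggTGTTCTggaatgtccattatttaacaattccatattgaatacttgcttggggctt
MAF: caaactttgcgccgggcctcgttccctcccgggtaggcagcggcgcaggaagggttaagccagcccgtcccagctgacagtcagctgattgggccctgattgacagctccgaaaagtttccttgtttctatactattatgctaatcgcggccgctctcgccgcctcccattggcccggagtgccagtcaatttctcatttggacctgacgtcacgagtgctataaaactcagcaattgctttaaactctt

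The half-site, searched on both strands, stood in 2 of the 45 upstream windows of 250 bases (4.44%), for IQGAP2 with its first base at −55 and for TRPM8 at −166. Each lay before 1 of the starts listed for its gene, and the windows of that gene's other starts held none. The IQGAP2 window printed above was chosen from those of that gene because it holds the half-site. Over all 35116 windows of the RefSeq set, 12.39% held it. The full element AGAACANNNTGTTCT, which contains the half-site, stood in 0 of the 45 and in 1 of the 35116. Median GC content was 66.4% against 58.0%. These are letter matches within short windows and say nothing of binding there or elsewhere.

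SLC45A3, a solute carrier of prostate epithelium also called prostein, gave 34.8, 33.1 and 36.4 CPM in the control libraries, 108, 91.1 and 101 in the knockdown libraries and 204, 195 and 187 in the rescue libraries. Its log2 fold change was 1.53 (SE 0.08, adjusted p = 6.2e-15) for knockdown over control and 0.96 (SE 0.08, adjusted p = 6.8e-10) for rescue over knockdown. AZGP1, a secreted zinc-binding glycoprotein, gave 8.38, 9.42 and 8.67 CPM in the control libraries, 36.2, 42.4 and 32.03 in the knockdown libraries and 84.6, 91.5 and 85.8 in the rescue libraries. The log2 steps were 2.06 (SE 0.11, adjusted p = 9.0e-15) and 1.24 (SE 0.10, adjusted p = 6.8e-10), and AZGP1 was the one gene of the 32 called at least 2-fold higher in rescue than in knockdown.

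HPGD, a dehydrogenase that inactivates prostaglandins, had 14 counts over all of control. It gave 0.374, 0.0928 and 0.0908 CPM in the control libraries, 1.94, 2.90 and 2.67 in the knockdown libraries and 5.98, 5.10 and 3.75 in the rescue libraries. Its first step was 3.63 (SE 0.43, adjusted p = 1.2e-07), and 4.69 without control replicate 1, which held 10 of those 14 counts. The second, 0.98 (SE 0.31, adjusted p = 0.039), was not called without knockdown replicate 1 (adjusted p = 0.158), 2 (0.0586) or 3 (0.0875), nor without rescue replicate 1 (0.194) or 2 (0.118).

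IQGAP2, a scaffold protein linked to the actin cytoskeleton, gave 13.7, 10.9 and 14.99 CPM in the control libraries, 27.4, 22.8 and 27.1 in the knockdown libraries and 46.4, 35.7 and 39.5 in the rescue libraries. C1orf116, also named specifically androgen-regulated gene, gave 15.6, 13.0 and 12.8 CPM in the control libraries, 22.8, 21.8 and 28.7 in the knockdown libraries and 51.5, 38.2 and 41.8 in the rescue libraries. Knockdown exceeded control by 0.97 (SE 0.13, adjusted p = 7.3e-07) for IQGAP2 and 0.82 (SE 0.13, adjusted p = 1.3e-05) for C1orf116. From knockdown to rescue the log2 steps were 0.65 (SE 0.12, adjusted p = 0.00049) for IQGAP2 and 0.84 (SE 0.12, adjusted p = 2.5e-05) for C1orf116. ACSL3, which activates long-chain fatty acids, gave 79.99, 87.2 and 83.8 CPM in the control libraries, 159, 143 and 147 in the knockdown libraries and 198, 200.04 and 183 in the rescue libraries. UAP1, which makes UDP-N-acetylglucosamine for glycosylation, gave 98.7, 112 and 109 CPM in the control libraries, 164, 171 and 164 in the knockdown libraries and 214, 222 and 208 in the rescue libraries. In knockdown ACSL3 rose by 0.84 (SE 0.07, adjusted p = 3.0e-10) and UAP1 by 0.64 (SE 0.07, adjusted p = 3.7e-08). Both rose again from knockdown to rescue, ACSL3 by 0.37 (SE 0.07, adjusted p = 0.00075) and UAP1 by 0.37 (SE 0.07, adjusted p = 0.00065).

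**Figure D3:**
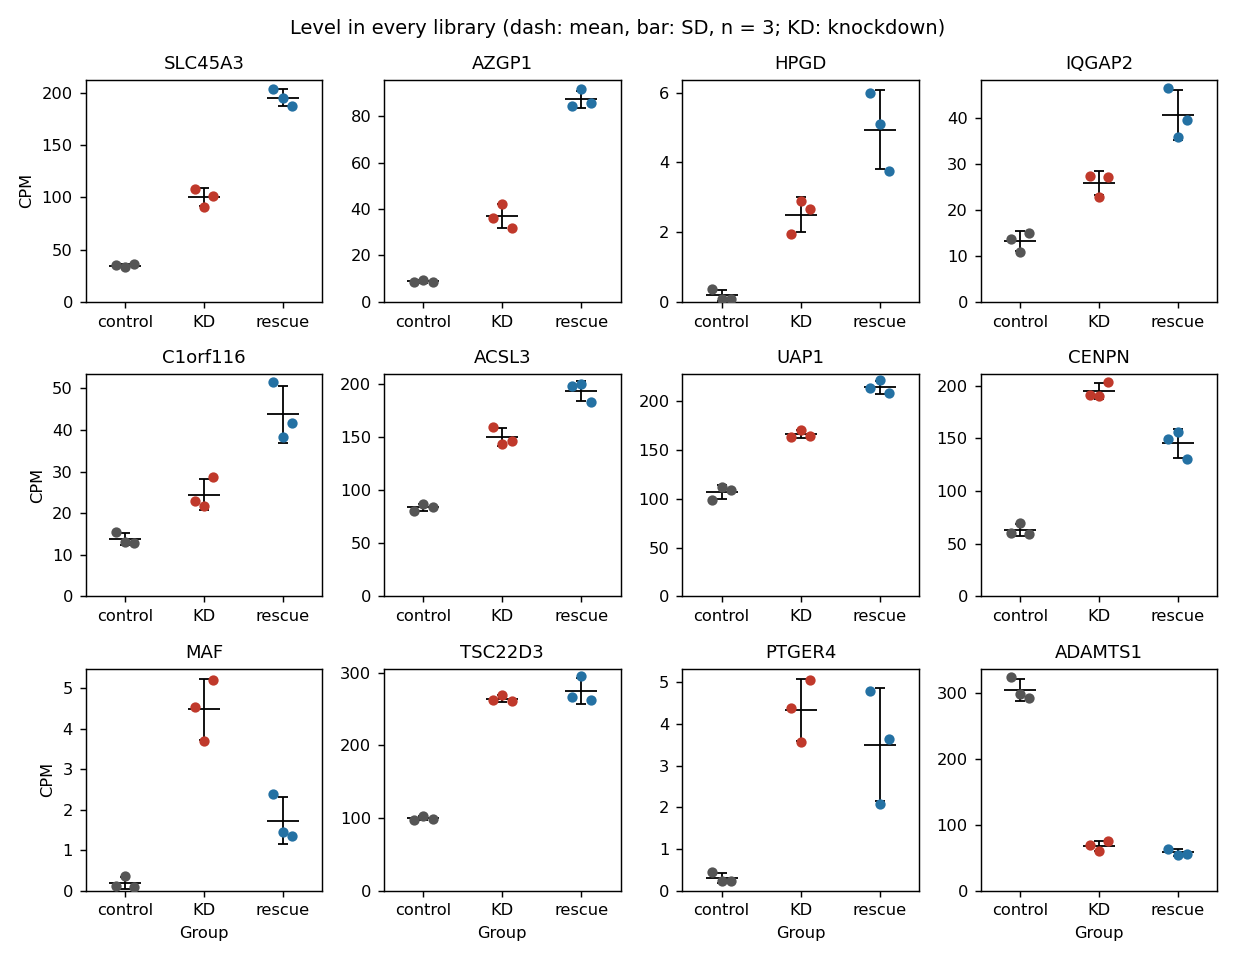
Points are the 9 libraries, dashes the group means and bars the SD (n = 3), as CPM on linear axes from 0. SLC45A3, AZGP1, HPGD, IQGAP2, C1orf116, ACSL3 and UAP1 step upward from control to knockdown to rescue, MAF and CENPN peak in knockdown, TSC22D3 and PTGER4 are high and ADAMTS1 low in both knockdown and rescue. HPGD, MAF and PTGER4 passed the filter only through knockdown and rescue libraries.

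MAF and CENPN were the 2 genes called lower in rescue than in knockdown. MAF, a basic leucine zipper transcription factor, gave 0.112, 0.371 and 0.0908 CPM in the control libraries, 4.54, 3.70 and 5.20 in the knockdown libraries and 2.40, 1.44 and 1.35 in the rescue libraries. All 3 groups were separate. Its rise in knockdown, 4.55 (SE 0.44, adjusted p = 3.0e-09), rested on 13 counts in all of control and was 5.38 without control replicate 2. The fall in rescue, −1.38 (SE 0.33, adjusted p = 0.0064), missed the threshold without knockdown replicate 3 (adjusted p = 0.0518). CENPN, a centromere protein, gave 60.3, 69.4 and 59.3 CPM in the control libraries, 191, 189.9 and 204 in the knockdown libraries and 149, 156 and 130.1 in the rescue libraries. Its 3 groups were also separate. The fall from knockdown was −0.43 (SE 0.08, adjusted p = 0.00044), and rescue stood above control by 1.20 (SE 0.08, adjusted p = 9.2e-13). Of its 3568 exon bases, 886 overlap exons of CMC2 and other genes on the opposite strand, and the strand setting of the counting is unknown.

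TSC22D3, a leucine zipper protein also induced by glucocorticoids, gave 96.9, 103 and 99.3 CPM in the control libraries, 263, 269.7 and 261 in the knockdown libraries and 266, 296 and 263 in the rescue libraries. It rose in knockdown by 1.41 (SE 0.07, adjusted p = 2.4e-15), and its knockdown and rescue libraries overlapped. NR3C1, the glucocorticoid receptor gene, had 11, 35 and 22 counts in control, knockdown and rescue and did not pass the filter. ELL2, a transcript elongation factor, stood at 23.8 ± 1.86 CPM for control, 22.1 ± 1.58 for knockdown and 19.5 ± 1.81 for rescue (SD, n = 3, as in all such values). It was called lower in rescue than in control (−0.29, SE 0.11, adjusted p = 0.0471). That call was lost in 10 of 15 alternative fits, among them those without control replicate 2 (0.16) or 3 (0.112), knockdown replicate 2 (0.0585) or 3 (0.054), or rescue replicate 1 (0.2) or 2 (0.11), given as adjusted p.

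EAF2, a partner of ELL proteins, stood at 0.918 ± 0.328 CPM for control, 0.919 ± 0.0350 for knockdown and 1.22 ± 0.232 for rescue, with no call. ZBTB10, a zinc finger protein, stood at 357 ± 28.4 CPM for control, 321 ± 13.6 for knockdown and 275 ± 9.06 for rescue and was called lower in rescue than in control (−0.37, SE 0.07, adjusted p = 0.00015). NCAPD3, a condensin subunit that shapes mitotic chromosomes, stood at 107 ± 1.51 CPM for control, 118 ± 4.64 for knockdown and 131 ± 6.10 for rescue and was called higher in rescue than in control (0.29, SE 0.07, adjusted p = 0.0019).

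Of the 6 kinases, receptors and scaffolds, 3 rose in knockdown, namely PTGER4, IQGAP2 and HOMER2. PTGER4, a receptor for prostaglandin E2, gave 0.449, 0.232 and 0.227 CPM in the control libraries, 4.39, 3.58 and 5.06 in the knockdown libraries and 4.80, 2.09 and 3.63 in the rescue libraries. The knockdown and rescue libraries lay apart from control and overlapped each other. Its difference in knockdown was 3.78 (SE 0.39, adjusted p = 7.1e-09), from 22 counts in control. PTGER4 passed the filter only through knockdown and rescue libraries, so that call is no support for a rise. HOMER2, a scaffold protein, rose by 0.39 (SE 0.09, adjusted p = 0.00074).

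CAMKK2, a calcium-dependent kinase upstream of AMPK, gave 61.9, 64.9 and 61.5 CPM in the control libraries, 70.2, 60.7 and 75.7 in the knockdown libraries and 105, 94.3 and 95.1 in the rescue libraries. The knockdown libraries overlapped control (0.13, SE 0.09, adjusted p = 0.25), and the rescue libraries lay above knockdown (0.51, SE 0.08, adjusted p = 0.00012). SGK1, a kinase also induced by glucocorticoids, was low, with 0.182 to 1.12 CPM in control, 0.801 to 1.47 for knockdown and 0.0980 to 1.12 for rescue, and no call. NDRG1, a stress-responsive gene, was the most abundant of the 32 and had no call in the fit reported here, at 2436 ± 76.7 CPM for control, 2218 ± 119.6 for knockdown and 2167 ± 41.6 for rescue. Per kilobase of merged exon, mean control levels were 248 CPM for NDRG1, 84.0 for ABHD2 and 0.0274 for MAF, the lowest. The rescue means were 221, 192 and 0.248 CPM per kilobase.

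Of the 4 membrane transport and trafficking genes, SLC45A3 and TPD52 rose in knockdown. TPD52, a vesicle trafficking protein, had 224 to 265 CPM in control, 313 to 388 for knockdown and 322 to 343 for rescue, a rise in knockdown of 0.54 (SE 0.08, adjusted p = 4.8e-06). TRPM8, a calcium channel opened by cold and menthol, gave 35.7, 33.9 and 44.0 CPM in the control libraries, 35.7, 34.9 and 33.6 in the knockdown libraries and 53.0, 44.6 and 39.4 in the rescue libraries. Rescue and control libraries overlapped. For TRPM8 the one call was rescue over knockdown (0.39, SE 0.11, adjusted p = 0.021), which was lost without knockdown replicate 2 (adjusted p = 0.0553), knockdown replicate 3 (0.0856) or rescue replicate 1 (0.192). RAB3B, a GTPase of secretory vesicles, stood at 63.0 ± 5.23 CPM for control, 63.5 ± 5.57 for knockdown and 75.7 ± 7.73 for rescue. Rescue was called above control (0.26, SE 0.09, adjusted p = 0.023), but not without control replicate 2 (adjusted p = 0.0527) or 3 (0.132) or rescue replicate 1 (0.168).

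All 5 lipid and prostaglandin genes rose in knockdown, from 0.66 on the log2 scale for PLPP1 to 3.63 for HPGD, and all 5 were called higher in rescue than in control. With 5 genes, and 62.5% of the 32 and 16.5% of all tested genes called higher in knockdown, this is a count and not a difference between roles, as are the counts of the other roles. Among the 5, HPGD passed the filter only through knockdown and rescue libraries, so its call is no support for a rise. The next largest rise was 0.95 for ABHD2. ABHD2, a membrane hydrolase, gave 921, 856 and 829 CPM in the control libraries, 1824, 1557 and 1665 in the knockdown libraries and 2138, 1892 and 1920.1 in the rescue libraries. Its 3 groups were separate. Knockdown was above control by 0.95 (SE 0.08, adjusted p = 2.2e-10), and rescue over knockdown had an adjusted p of 0.059, a step called in 7 of 15 alternative fits. DBI, which binds acyl-CoA, stood at 27.5 ± 4.79 CPM for control, 52.3 ± 8.64 for knockdown and 64.9 ± 8.06 for rescue, a rise in knockdown of 0.93 (SE 0.13, adjusted p = 2.3e-05). PLPP1, a lipid phosphate phosphatase, stood at 30.8 ± 2.17 CPM for control, 48.7 ± 7.07 for knockdown and 45.2 ± 5.07 for rescue. Of its 2016 exon bases, 573 overlap exons of MTREX on the other strand or of a pseudogene.

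Of the 4 sugar, hexosamine and methyl metabolism genes, UAP1, B4GALT1 and SORD rose in knockdown. B4GALT1, which adds galactose to glycans, stood at 81.7 ± 6.29 CPM for control, 119 ± 3.21 for knockdown and 123 ± 1.83 for rescue, a rise in knockdown of 0.54 (SE 0.07, adjusted p = 1.3e-06). SORD, which turns sorbitol into fructose, stood at 239 ± 7.996 CPM for control, 291 ± 5.97 for knockdown and 277 ± 19.7 for rescue and had the smallest rise that was called, 0.28 (SE 0.07, adjusted p = 0.0027). Its rescue level was called above control (adjusted p = 0.018), but not without control replicate 3 (adjusted p = 0.0511) or rescue replicate 1 (0.12) or 2 (0.0638). GNMT, a glycine methyltransferase, stood at 3.01 ± 0.447 CPM for control, 4.03 ± 0.840 for knockdown and 5.40 ± 0.565 for rescue, with a call for rescue over control (0.84, SE 0.23, adjusted p = 0.005).

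Among the 4 secreted and extracellular genes, AZGP1 and ADAM7 rose in knockdown and ADAMTS1 fell. ADAMTS1, a secreted metalloprotease, gave 323, 299 and 292 CPM in the control libraries, 69.0, 60.3 and 74.7 in the knockdown libraries and 64.0, 54.4 and 56.5 in the rescue libraries. Control lay apart, and knockdown and rescue overlapped. The fall in knockdown was −2.16 (SE 0.08, adjusted p = 8.4e-18), or 4.48-fold, the one fall called among the 32 in that comparison. Rescue over knockdown was −0.22 (SE 0.08, adjusted p = 0.088). ADAM7, a membrane protein of a related family, gave 0.524, 0.928 and 0.999 CPM in the control libraries, 2.36, 2.61 and 2.35 in the knockdown libraries and 3.14, 2.69 and 2.996 in the rescue libraries. Its rise in knockdown was 1.59 (SE 0.34, adjusted p = 0.0005). SPOCK1, a proteoglycan, had no call, at 2.02 ± 0.528 CPM for control, 3.10 ± 0.418 for knockdown and 2.35 ± 0.223 for rescue. Outside these roles HERC3, a ubiquitin ligase, stood at 42.6 ± 3.75 CPM for control, 62.2 ± 4.21 for knockdown and 72.9 ± 0.970 for rescue and rose in knockdown by 0.55 (SE 0.09, adjusted p = 1.4e-05).

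**Figure D4:**
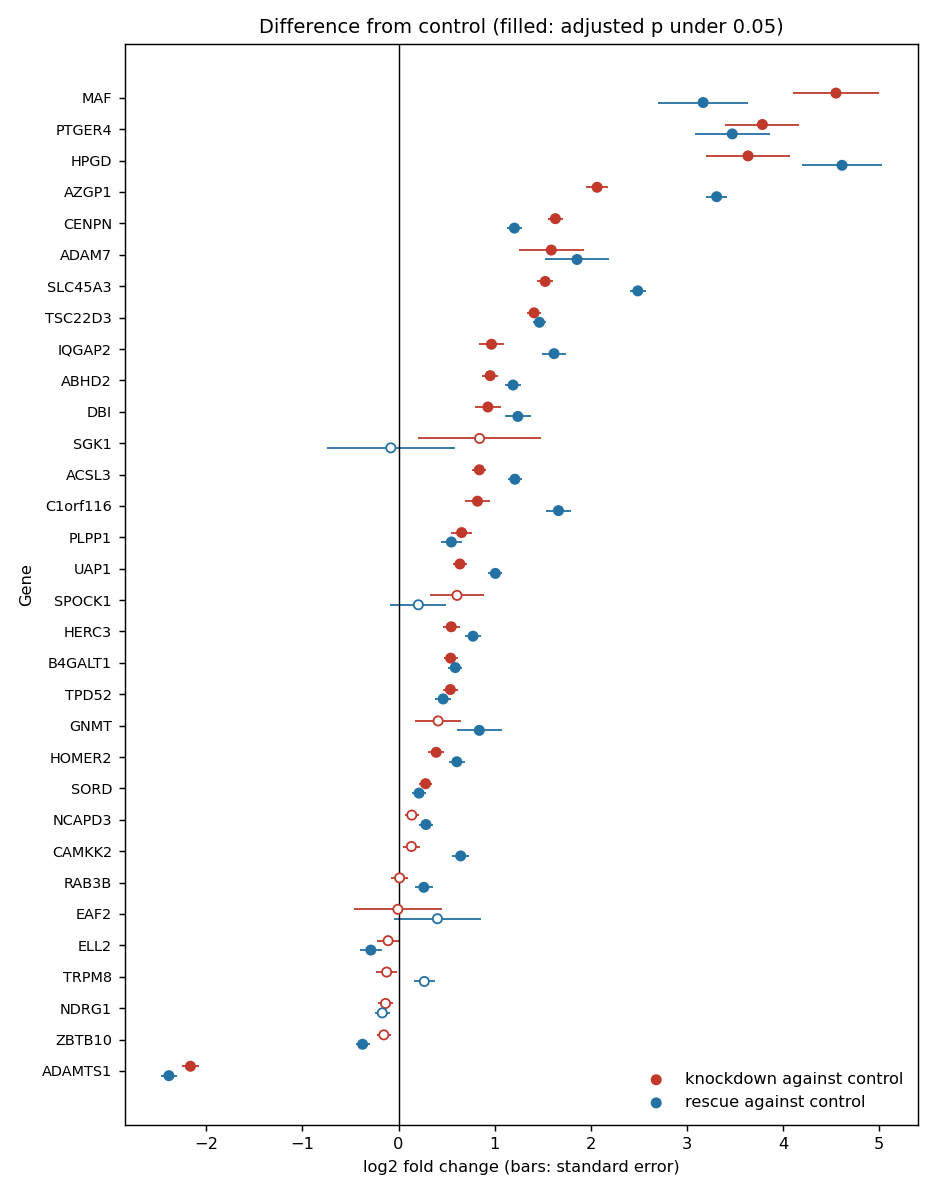
Points give the log2 fold change of each gene in knockdown (red) and in rescue (blue) over the same 3 control libraries, with bars for the standard error and filled points for calls. Knockdown values run from −2.16 for ADAMTS1 to 4.55 for MAF, which passed the filter only through knockdown and rescue libraries.

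The spread between replicates was small for most of the 32. The median SD of log2(CPM + 0.5) was 0.12 in each of the 3 groups. SGK1 had the highest in every group, at 0.63 in control, 0.30 in knockdown and 0.72 in rescue.

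Other genes of the pathway were counted from lists. Of 6 androgen reporters (4 kallikreins, FKBP5 and TMPRSS2), all 6 rose in knockdown, KLK2 by 3.76 (SE 0.09) and TMPRSS2 by 1.79 (SE 0.07) on the log2 scale. Of 56 tested other androgen-induced genes, 25 rose and 12 fell in knockdown, with a median of 0.22. These are 44.6% and 21.4%, where 16.5% and 15.6% of all tested genes were called. In rescue against knockdown 2 of the reporters were higher and 1 lower, and 10 of the 56 were higher and 7 lower (17.9% and 12.5%), where 5.20% and 4.88% of all tested genes were called. The count of 7 became 4 without knockdown replicate 1 or 2 or rescue replicate 1, and 3 without rescue replicate 3. The smallest adjusted p-values in knockdown among the 56 belonged to ALDH1A3, a retinal dehydrogenase, at 2.13 (SE 0.12), LIFR, a cytokine receptor, at −1.13 (SE 0.08), and STK39, a kinase, at 1.00 (SE 0.08).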

How the data were processed

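RNA from 9 LNCaP libraries was analysed. The authors deposited gene-level counts, whole numbers with no normalization. The submitters' processing notes name FastQC, cutadapt, HISAT2, HTSeq and hg19. Versions, annotation release and strand setting: not given in the sources used here. HTSeq's summary lines were excluded, and 48.8% to 50.7% of reads fell in no gene. Symbols came from an identifier table (56373 of 60880 matched) and GENCODE v29 (444 more), which also gave exon lengths and overlaps.

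edgeR 4.0.16 in R 4.3.3 was used: filterByExpr (minimum count 10, 18389 genes kept), TMM scaling, and a robust quasi-likelihood fit to all 9 libraries (6 residual degrees of freedom). Benjamini-Hochberg adjustment covered all tested genes, with calls under 0.05. Standard errors were derived from the fold change and its F statistic. Alternatives used DESeq2 1.42.0, limma 3.58.1 and other settings. The fit was tested on simulated counts.

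Members and lists were chosen with earlier results of these data known. The rule gave full library values to the 10 called genes of largest change per direction in knockdown and to those called in rescue against knockdown. From other lists it named NR3C1, UGT2B28 and up to 3 genes of smallest adjusted p. Some genes of these lists, and 1 of the lists, are not reported here.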

Additional observations from a re-analysis of the deposited data

How the results depend on the processing

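Results were recomputed with RLE size factors, DESeq2, limma voom, no filter on low counts, the replicate number as a block, only the 6 libraries compared, and each library left out. All 21 calls among the 32 genes in knockdown against control held in all 15 fits. Of 11 calls in rescue against knockdown 8 held in all, and of 27 in rescue against control 24 did; the exceptions were MAF, HPGD and TRPM8, and ELL2, SORD and RAB3B. The labels do not state that replicate numbers mark a shared culture or day, so numbers were not taken as pairs. Deviations of same-numbered libraries had correlations of −0.037 to 0.077 over all tested genes. Those correlations weight genes of every level alike, so they cannot exclude pairing among well-counted genes. With the replicate block, 13 of the 32 were higher and 4 lower in rescue against knockdown, in place of 9 and 2. Over all tested genes that fit called 1184 (genes called higher, rescue against knockdown) and 1135 lower, in place of 957 and 897. Calls were gained in some fits: for rescue against knockdown ABHD2 in 7, ZBTB10 in 5, DBI and RAB3B in 4 each, ADAMTS1 in 2 and HERC3 in 1; for rescue against control TRPM8 in 4 and NDRG1, lower, in 3; and for knockdown against control ZBTB10 in 1.

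With 1 library left out, 1 to 2 of the 32 were called lower in knockdown against control (2 without control replicate 2) and 1 to 3 in rescue against knockdown (1 without knockdown replicate 3). Their median log2 fold change was 0.53 to 0.67 in knockdown against control, 0.17 to 0.24 in rescue against knockdown and 0.67 to 0.79 in rescue against control. Over all tested genes, genes called lower, rescue against knockdown, numbered 547 to 1144 in place of 897 (547 without knockdown replicate 2, and 558, 580 and 559 without rescue replicate 1, 2 and 3). Signs of uncalled values turned for EAF2 in knockdown against control (0.037 in limma voom, 0.0091 with the replicate block, −0.26 to 0.23 with 1 library left out) and, with 1 left out, for RAB3B (−0.062 to 0.070) and UGT2B28 (−1.455 to 0.1636) in knockdown against control, for NDRG1 (−0.075 to 0.0023), TPD52 (−0.15 to 0.0082) and PLPP1 (−0.20 to 0.0105) in rescue against knockdown, and for SGK1 in rescue against control (−1.03 to 0.74). The cause was not tested.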
